A study of Mus musculus with 18 samples.

Results

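The effect of (+)-JQ1 on macrophages during LPS stimulation was measured by comparing the 3 RNA-seq libraries labelled LPS with JQ1 (LPS + JQ1) with the 3 labelled LPS without pretreatment (LPS). These were 6 of the 18 libraries of the study and were chosen by their titles, not by any measured value. All cells were bone marrow-derived macrophages (BMDMs), macrophages grown in culture from bone marrow, of Il10-/- mice on the C57BL/6J background. LPS + JQ1 cells received 500 nM (+)-JQ1 for 12 h before 50 ng/mL LPS was added for 4 h, so they had been in culture with JQ1 for 16 h. LPS cells received the same LPS for the same 4 h without JQ1. Their labels call them untreated, whereas the paper's methods describe vehicle in this arm. The methods give 3 male Il10-/- donor mice of 12 weeks of age. The other 4 groups of 3 libraries were Unstimulated cells, cells with JQ1 alone, and cells with 10 ng/mL IL-10 without and with LPS, and they enter below only where named. Since all groups lacked Il10, nothing here describes cells that can make this cytokine.

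BET proteins, among them Brd2 and Brd3, bind acetylated histone tails through their bromodomains and bring P-TEFb, the kinase that releases paused RNA polymerase II, to promoters and enhancers. (+)-JQ1 occupies the bromodomain pockets and displaces the proteins from chromatin. LPS, a component of the outer membrane of Gram-negative bacteria, is sensed by Tlr4 and activates NF-kB, AP-1 and interferon regulatory factors, which within hours induce cytokines, chemokines and, through secreted interferon beta, the interferon-stimulated genes.

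The upstream sequence of 5 genes is shown because they stand for the main patterns that follow: Ifnb1, Tnf and Il12b are cytokine genes that LPS induces and that were lower with JQ1, and Hexim1 and Mknk2 were among the genes with the largest rise. Each line holds the 250 bases before the gene start, read from the genome build mm9 at a start that GENCODE vM1 and RefSeq share. Capitals mark matches, on either strand, to a kappa B motif (GGANNNTCC), an AP-1 motif (TGANTCA), an interferon-stimulated response element core (GAAANNGAA) or a TATA box (TATAAA), where N is any base. The 5 windows lie at chr4:88168699-88168948, minus strand (Ifnb1), chr17:35338953-35339202, minus strand (Tnf), chr11:44213315-44213564, plus strand (Il12b), chr11:102977389-102977638, plus strand (Hexim1) and chr10:80139039-80139288, minus strand (Mknk2).
Ifnb1: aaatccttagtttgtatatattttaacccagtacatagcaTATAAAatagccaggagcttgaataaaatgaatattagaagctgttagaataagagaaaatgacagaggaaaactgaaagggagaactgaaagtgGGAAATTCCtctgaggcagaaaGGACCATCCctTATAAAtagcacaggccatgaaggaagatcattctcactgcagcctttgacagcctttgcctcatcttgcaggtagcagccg
Tnf: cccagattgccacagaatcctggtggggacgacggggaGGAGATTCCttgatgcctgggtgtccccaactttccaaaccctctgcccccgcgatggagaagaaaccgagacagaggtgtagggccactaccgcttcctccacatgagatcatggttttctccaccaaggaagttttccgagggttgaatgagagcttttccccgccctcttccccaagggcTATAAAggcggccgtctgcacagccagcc
Il12b: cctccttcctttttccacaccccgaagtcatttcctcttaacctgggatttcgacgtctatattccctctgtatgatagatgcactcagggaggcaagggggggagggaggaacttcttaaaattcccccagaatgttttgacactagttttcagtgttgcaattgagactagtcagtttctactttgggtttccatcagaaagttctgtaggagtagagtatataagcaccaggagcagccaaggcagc
Hexim1: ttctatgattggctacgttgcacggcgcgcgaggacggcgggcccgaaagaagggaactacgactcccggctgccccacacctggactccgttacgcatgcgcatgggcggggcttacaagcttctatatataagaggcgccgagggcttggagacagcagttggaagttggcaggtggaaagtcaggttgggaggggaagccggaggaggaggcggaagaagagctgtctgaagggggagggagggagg
Mknk2: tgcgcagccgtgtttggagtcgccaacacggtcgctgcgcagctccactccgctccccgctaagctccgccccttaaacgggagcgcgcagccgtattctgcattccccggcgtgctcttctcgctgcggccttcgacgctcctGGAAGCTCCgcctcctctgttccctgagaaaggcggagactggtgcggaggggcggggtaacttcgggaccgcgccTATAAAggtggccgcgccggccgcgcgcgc

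In the Ifnb1 window the kappa B letters began 115 and 93 bases before the start, and in the Tnf window they began 212 bases before it. The Mknk2 window, of a gene that rose, held kappa B letters too, 106 bases before the start. The TATA letters of Tnf and Mknk2 began 29 and 30 bases before the start. The Il12b and Hexim1 windows held none of the 4 patterns in these exact letters. A CpG ratio compares the CG pairs in a window with the number its C and G content alone would give. It was 0.103 for Ifnb1, 0.485 for Tnf and 0.227 for Il12b, and 0.857 for Hexim1, and it was higher still for Mknk2. Across genes the same measures are given further on.

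The 6 libraries held 13488553 to 20560937 expected counts, the reads that RSEM assigns to each gene, so that 3 counts, taken as the floor of detection, corresponded to 0.146 to 0.222 CPM (counts scaled to a common library total). All values below called normalised counts are expected counts divided by a size factor per library, and all fold changes are log2 values of LPS + JQ1 minus LPS with a standard error (SE) from the same fit of all 18 libraries. The ribosomal RNA precursor Rn45s took 5.54% to 7.07% of the LPS libraries and 7.11% to 7.92% of the LPS + JQ1 libraries (exact permutation p = 0.1, the smallest that 3 against 3 allows). Defining macrophage markers were present in every library, with summed abundances of 16356 to 17775 TPM, the authors' length-corrected abundance, with LPS and 20331 to 23376 with LPS + JQ1. Their members differed, however. Lyz2, the macrophage lysozyme, had higher TPM values with JQ1, Adgre1, the F4/80 antigen, had 32435, 34961 and 36279 with LPS and 32246, 33415 and 32924 with LPS + JQ1 (normalised counts, adjusted p 0.245), and 5 others fell: Fcgr1, the high-affinity IgG receptor (-4.74), the integrin Itgam (-2.27), Ms4a7 (-1.93), the lineage factor Spi1 (-1.55) and the receptor kinase Mertk, which had 1668, 1403 and 1599.8 with LPS and 775, 775 and 789 with LPS + JQ1. Cd68 (-0.43), Csf1r (-0.25) and Cd14 (-0.19) were called lower by small amounts. In TPM, Cd14 had 1550, 1828 and 1831 with LPS and 1655, 2037 and 1949 with LPS + JQ1, so its direction was not secure. Markers of T cells were at 10.5 to 11.1 TPM in sum with LPS and 2.55 to 2.91 with LPS + JQ1, and those of endothelial cells at 11.6 to 13.8 and 1.44 to 1.64. Within these sums Cd3d, Cd3e, Cd3g and Cd8a were at or under 0.11 TPM in every library, and most of the difference lay in Lck, Cd247 and Kdr. Neutrophil and precursor markers summed to 35.6 to 51.0 TPM with LPS and to at most 29.6 TPM with LPS + JQ1, with Ly6g and Elane at 0 throughout, and dendritic cell markers to 2.17 to 3.18 and 1.15 to 1.52 TPM. The part of other cells in the results was not tested, and in bulk RNA fewer cells of a type and less RNA per cell cannot be told apart.

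JQ1 changed most of the genes tested, and with the size factors used here large falls were more frequent than large rises. Of 14328 genes tested, 8207 (57.3%) had an adjusted p under 0.05, 3490 of them higher with JQ1 (24.4% of tested genes) and 4717 lower (32.9%). In 7903 of the genes called (96.3%) the groups did not overlap, so lack of overlap does not set a called gene apart. A change of more than 2-fold was called for 3743 genes, 1424 higher (9.94%) and 2319 lower (16.2%). Beyond 16-fold, a log2 value of 4, there were 36 genes on the higher and 312 on the lower side. In 383 of the genes called lower, no LPS + JQ1 library held more than 3 counts, and in 133 called higher the same was true of the LPS libraries, so those folds are not measured sizes. The genes called more than 2-fold lower took 26.6%, 26.2% and 28.2% of all counts in the LPS libraries and 10.5%, 10.7% and 10.6% in the LPS + JQ1 libraries. Those called more than 2-fold higher took 2.08%, 2.18% and 2.17% with LPS and 8.37%, 8.58% and 8.19% with LPS + JQ1.

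The balance of the directions depended on how libraries were scaled. The median fold change of genes with a mean of at least 10 counts was -0.09 with the size factors used here, 0.02 with TMM factors, 0.28 with total-count scaling and 0.19 with TPM. Of the genes called, 42.5% were higher here, against 64.8% when libraries were scaled by total count and 62.7% with limma on TPM. Of those called beyond 2-fold, 38.0% were higher here, against 61.1% and 55.3%. Rises beyond 2-fold thus outnumbered falls with total-count scaling (2443 and 1557) and with limma on log2(TPM + 1) (1253 and 1014). Which direction was more frequent was therefore not secure, beyond 2-fold either. Small changes had no secure direction, and the genes named below are mostly those with large ones.

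**Figure D1:**
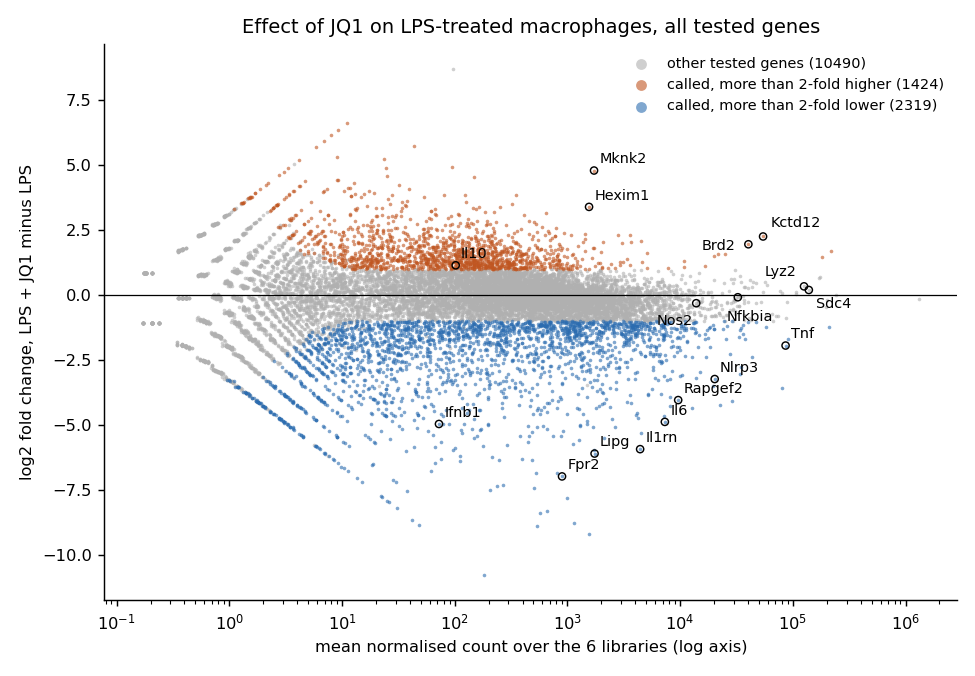
Log2 fold change of LPS + JQ1 minus LPS (y axis) against the mean normalised count over the 6 libraries (x axis, log scale), 1 point per gene, for the 14233 tested genes with a count in these libraries. Genes called more than 2-fold higher (1424) are orange and more than 2-fold lower (2319) are blue; Mknk2 and Hexim1 lie at 4.80 and 3.40, Fpr2 and Lipg at -6.98 and -6.10, and Sdc4, Nfkbia and Nos2, which LPS induces, lie close to 0.

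Among the drug's own targets and their partners, most members rose. Brd2 (chromosome 17, 34248965 to 34259262, minus strand) had normalised counts of 17219, 16759 and 15551 with LPS and 62347, 64225 and 65932 with LPS + JQ1 (log2 fold change 1.96, SE 0.056, adjusted p 4.14e-263), about 4 times the LPS level. Every LPS + JQ1 library was far above every LPS library. Hexim1 (chromosome 11, 102977639 to 102981039, plus strand), the inhibitory protein that holds P-TEFb in its inactive complex and a common readout of BET inhibition, had 301, 256 and 253 with LPS and 3098, 2591 and 2835 with LPS + JQ1 (log2 fold change 3.40, SE 0.101). Brd3 had 377, 351 and 299.6 with LPS and 616, 573 and 566 with LPS + JQ1 (log2 fold change 0.78), again without overlap. Of the 19 genes in the list of BET proteins and P-TEFb regulators, 11 were higher and 4 lower, with a median of 0.26 against -0.109 over all tested genes. Ell, an elongation factor, rose by 1.99 (84.8, 87.9 and 77.3 with LPS and 342, 318 and 337 with LPS + JQ1), while its paralogue Ell2 (-0.89) and the super elongation complex scaffold Aff1 (-0.51, not called under total-count scaling) fell. Polr2a, the largest subunit of RNA polymerase II, had 1743, 1707 and 1645 with LPS and 7488, 6816 and 7332 with LPS + JQ1 (log2 fold change 2.09, SE 0.062). In the list of Mediator and RNA polymerase II genes, 19 of 43 were higher and 16 lower; Med22 (1.53) and Med31 were among those that rose and Med12 (-1.56), Med30 (-1.88) and Med21 (-1.35) among those that fell. The list's median was -0.08 and turned positive with TMM, total-count and TPM scaling.

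Il10, whose coding function the mice lack, still gave reads (chromosome 1, 132916422 to 132921551, plus strand). Its normalised counts were 53.7, 61.0 and 74.9 with LPS and 118, 142 and 164 with LPS + JQ1 (log2 fold change 1.15, SE 0.212, adjusted p 1.73e-07), higher in every LPS + JQ1 library than in any LPS library. Since every library came from Il10-/- cells, these counts could not be set against wild-type transcript. Myc, the gene most often tied to BET inhibition in tumour cells, had 467, 422 and 367 with LPS and 353, 269 and 362 with LPS + JQ1 and did not pass (log2 fold change -0.35, SE 0.175, adjusted p 0.0732; with the replicate block -0.36, adjusted p 0.0216, and without LPS replicate 3 -0.44, adjusted p 0.0416). In resting cells Myc fell with JQ1 (log2 fold change -1.81), and the interaction, the difference between both effects, passed (1.45, adjusted p 1.49e-07).

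The sensing apparatus for microbial products was lower with JQ1. Of the 26 genes of the LPS receptor and its adaptors, 20 fell, 10 of them more than 2-fold, and 3 rose (median -0.69). Tlr4, the LPS receptor, had 394, 365 and 636 with LPS and 109, 140.1 and 128 with LPS + JQ1 (log2 fold change -1.89, SE 0.215, adjusted p 1.15e-17); LPS replicate 3 was higher than the other LPS libraries, and all were above the LPS + JQ1 libraries. Cd180, a Toll-like surface protein that restrains Tlr4, had 5867, 5729 and 7720.2 with LPS and 331, 441 and 329.9 with LPS + JQ1 (log2 fold change -4.13). Ly86, its partner MD-1, fell by 2.14 on the log2 scale. The 3 that rose did so by small amounts: Tab1 (0.57; 0.44 and no longer called without LPS replicate 3), Irak4 (0.41) and Traf3 (0.38).

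Other pattern receptors and inflammasome genes had a lower median: 25 of 29 were called lower, 21 of them more than 2-fold, none was called higher, and the median was -2.19 against -0.109 over all tested genes. Tlr7, the endosomal receptor for single-stranded RNA, had 3919, 3761 and 6794 with LPS and 151, 212 and 171 with LPS + JQ1 (log2 fold change -4.76, SE 0.271). Tlr1, which pairs with Tlr2 on bacterial lipoproteins, had 3796, 3686 and 4629.9 with LPS and 195, 251 and 243 with LPS + JQ1 (-4.14). Nlrp3, the sensor of the best-known inflammasome, had 36766, 37931 and 35225 with LPS and 3627, 3962 and 4142 with LPS + JQ1 (-3.23). In each of these genes the lowest LPS library was more than 8 times the highest LPS + JQ1 library.

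Of 20 genes for NF-kB subunits and inhibitors, 13 fell and 1 rose (median -0.52; 6 fell and 4 rose under total-count scaling). Traf1, a signalling adaptor, had 14107, 12545 and 11002 with LPS and 939.8, 796 and 944 with LPS + JQ1 (log2 fold change -3.81), and the nuclear IkB protein Nfkbid (-2.14) and the deubiquitinase Tnfaip3, A20 (-1.68), fell as well. The member that rose was Otud7b, a deubiquitinase of the same family as A20, with 271, 251 and 279 with LPS and 512, 542 and 602 with LPS + JQ1 (1.05). Nfkbia, the classical IkB alpha and a primary LPS target, had 35014, 34362 and 30719 with LPS and 32279, 29707 and 33016 with LPS + JQ1; the groups overlapped and its log2 fold change was -0.08 with an interval of -0.30 to 0.15, but 0.30 (adjusted p 0.0155) under total-count scaling.

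AP-1, EGR and immediate early factors divided. Of 28 members, 11 fell (39.3%) and 5 rose (17.9%), not far from the 32.9% and 24.4% of all tested genes. The list's median was -0.46, and 10 were higher and 9 lower under total-count scaling. Jun, a core AP-1 subunit, had 823, 778 and 662 with LPS and 2769.7, 2583 and 2692 with LPS + JQ1 (log2 fold change 1.83, SE 0.077, adjusted p 1.22e-121). Klf2, a factor with anti-inflammatory roles in myeloid cells, rose by 2.70 and Ier3 (1.78). On the other side the nuclear receptor Nr4a3 had 1106, 974 and 974 with LPS and 47.5, 44.2 and 49.2 with LPS + JQ1 (-4.44), the small Maf factor Maff fell by 3.65 and Batf2 (-2.66). Of 20 IRF and STAT genes, 14 fell and 1 rose (median -0.86). Irf1, an early interferon regulatory factor, had 17957, 18925 and 17617 with LPS and 8516, 8459.5 and 8952 with LPS + JQ1 (log2 fold change -1.07, SE 0.266, adjusted p 1.53e-04), Irf2 fell by 1.25, and the kinase Jak3 (-1.43). Irf3, which is present before LPS and acts through phosphorylation, was the one that rose (0.70). Irf7, the amplifier of type I interferon, had 23538, 21415 and 19394 with LPS and 11398, 11341 and 12056 with LPS + JQ1. The groups did not overlap (log2 fold change -0.89, SE 0.366, adjusted p 0.0284), and the SE came from the fit of all 18 libraries. Leaving out any library except LPS replicate 3 took the adjusted p of Irf7 above 0.05 (0.0564 to 0.0941). So did TMM factors (-0.77, adjusted p 0.0644), total-count scaling (-0.51, adjusted p 0.236) and limma on log2(TPM + 1) (-0.58, adjusted p 0.0928).

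Factors of the macrophage lineage were also mixed, with 13 of 20 lower and 5 higher (median -1.12). Cebpa, a factor of early myeloid differentiation, had 147, 153 and 117 with LPS and 1044, 926 and 792 with LPS + JQ1 (log2 fold change 2.73), and the inhibitor of DNA binding Id3 rose by 1.38. Nr1h3, the liver X receptor alpha, had 484, 518 and 462 with LPS and 57.4, 60.0 and 27.1 with LPS + JQ1 (-3.32), and the related factors Tfec (-2.93) and Mitf (-2.20) fell together with Spi1. Csf1r, the receptor for the macrophage growth factor, had 28387, 30288 and 26149 with LPS and 23531, 23819.9 and 23799.6 with LPS + JQ1; the fall was small (-0.25, adjusted p 3.58e-04) and turned to 0.12 with total-count scaling and 0.05 with TPM, neither of them called.

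Secreted cytokines showed the lowest median of the 38 lists, -2.27: 27 of 41 tested fell, 25 of them more than 2-fold, and 5 rose. Il6 (chromosome 5, 30339701 to 30346508, plus strand) had 13638, 11195 and 17655 with LPS and 522, 488 and 428 with LPS + JQ1 (log2 fold change -4.88, SE 0.419, adjusted p 2.75e-30). Il12b, the p40 subunit shared by IL-12 and IL-23, had 42189, 38525 and 48725 with LPS and 2172, 2092 and 2574 with LPS + JQ1 (-4.24, SE 1.002); its SE came from the fit of 18 libraries, whereas the 3 libraries within each of these groups lay close together. Tnf, the tumour necrosis factor, had 145049, 136379 and 129045 with LPS and 35589, 34387 and 37076 with LPS + JQ1 (-1.94). All 3 inflammatory cytokines fell without overlap of the groups, and differences between their folds were not tested.

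Ifnb1, interferon beta, had 113, 151 and 157 with LPS and 2.21, 5.27 and 6.15 with LPS + JQ1 (log2 fold change -4.96, SE 0.516, adjusted p 5.80e-21), close to the floor with JQ1. Il1rn, the secreted antagonist of the IL-1 receptor, had 7724, 8447 and 9909 with LPS and 145, 149.5 and 132 with LPS + JQ1 (-5.93), and the TNF family member Tnfsf15 had 3075, 2620.1 and 4188 with LPS and 87.2, 93.7 and 111 with LPS + JQ1 (-5.08). An inhibitor of inflammation was therefore among the most reduced cytokine genes. Those that rose included Tgfb1, an immunosuppressive cytokine, with 5572, 5305 and 4437 with LPS and 10724, 9242 and 11346 with LPS + JQ1 (1.03), and Pdgfb, a growth factor for mesenchymal cells, with 3676, 3656 and 2642 with LPS and 7684, 6422 and 6449 with LPS + JQ1 (1.04), beside Il10.

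**Figure D2:**
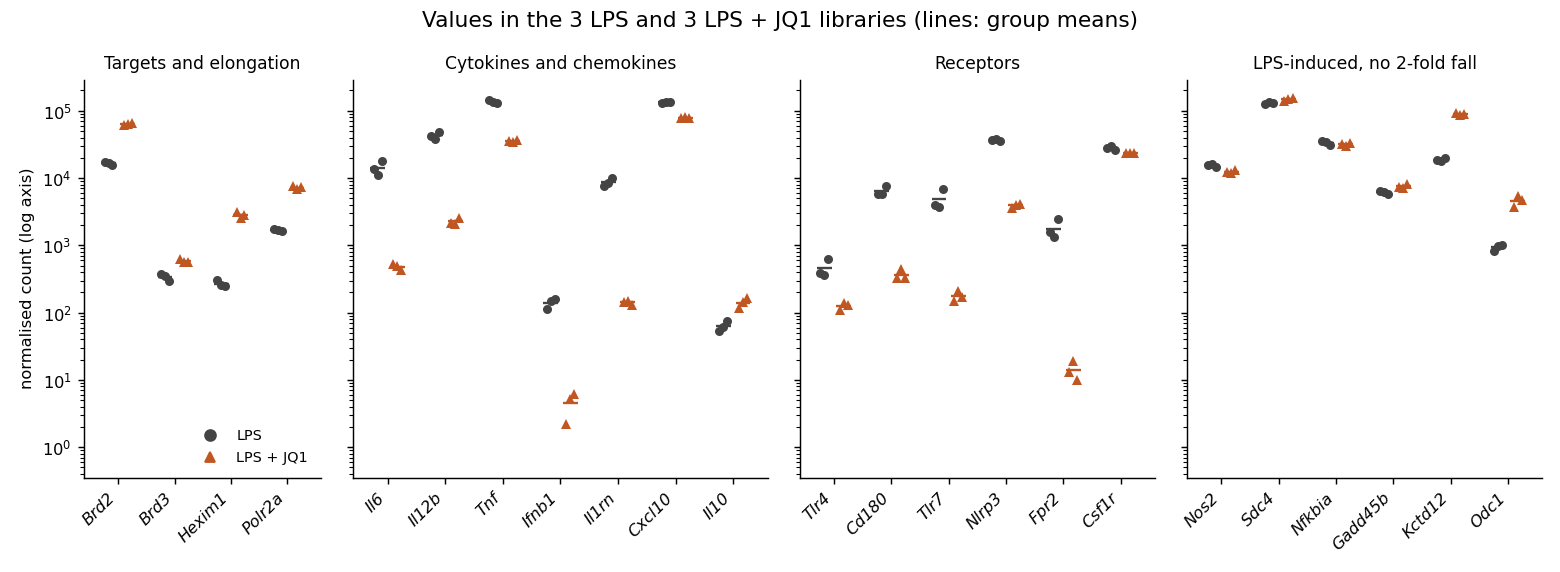
Normalised counts (y axis, log scale) of 23 genes in the 3 LPS libraries (circles) and the 3 LPS + JQ1 libraries (triangles), with a line at each group's mean. The groups overlap for Nfkbia and lie apart for the other 22 genes, by a narrow margin for Sdc4, Nos2, Csf1r and Gadd45b. Among all genes called, the groups lie apart in 96.3%. Il6, Il12b, Il1rn, Ifnb1, Cd180, Tlr7 and Fpr2 lie more than 10-fold lower with JQ1.

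Chemokine genes fell without a called rise. Of 13 CC chemokines tested, 9 fell, all more than 2-fold (median -1.66). Ccl12, a ligand of Ccr2, had 1572, 1474 and 2111 with LPS and 43.1, 43.2 and 32.0 with LPS + JQ1 (log2 fold change -5.44), Ccl22, a ligand of Ccr4, had 10933, 8663 and 9499 with LPS and 772, 532 and 718 with LPS + JQ1 (-3.85, SE 0.955), and Ccl8 fell by 2.17. Of 11 CXC chemokines tested, 10 fell (median -1.92; 8 with the replicate block and 6 with total-count scaling). Cxcl3, a neutrophil attractant, had 4953, 4619.8 and 4201 with LPS and 311, 183 and 193 with LPS + JQ1 (-4.32), Cxcl14 fell by 2.26, and Cxcl9, an interferon-induced T cell attractant, had 8681, 8128 and 10109 with LPS and 1620.1, 2159 and 1883 with LPS + JQ1 (-2.25, adjusted p 0.0199, above 0.05 without LPS replicate 1 or 3 or LPS + JQ1 replicate 1 or 3). Cxcl10, a further interferon-induced attractant, had 131583, 133735 and 133664 with LPS and 78438, 81381 and 78046 with LPS + JQ1; the groups did not overlap and the fold change was -0.75 (SE 0.582), with no adjusted p in the fit of 18 libraries, which set the gene aside for an outlying library, and an adjusted p of 3.86e-18 when only these 6 libraries were fitted (-0.65). With all 18 libraries the adjusted p of Cxcl10 was 0.307 with the replicate block and 0.132 with edgeR. Cxcl10 thus kept most of its level with JQ1, while Cxcl3 and Ccl12 lost most of theirs.

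Receptors for cytokines and chemokines followed, with 33 of 47 lower, 24 of them more than 2-fold, and 6 higher (median -1.28). Fpr2, a receptor for formylated peptides and lipid mediators, had 1558, 1313 and 2463 with LPS and 13.3, 19.0 and 9.85 with LPS + JQ1 (log2 fold change -6.98, SE 0.602), the largest fall under the naming rule. Cmklr1, the chemerin receptor, had 909, 974 and 754 with LPS and 11.0, 17.9 and 24.6 with LPS + JQ1 (-5.64), and Csf3r, the receptor for granulocyte colony-stimulating factor, had 973, 1123 and 942 with LPS and 79.5, 82.1 and 49.2 with LPS + JQ1 (-3.84). Among those that rose were both chains of the IL-6 receptor, Il6st (gp130) with 673, 638 and 684 with LPS and 2194, 2156 and 2215 with LPS + JQ1 (1.72) and Il6ra with 169.7, 169 and 147 with LPS and 419, 353 and 336 with LPS + JQ1 (1.19), and the shared beta chain Csf2rb (0.53). The IL-6 ligand and its receptor chains therefore moved in opposite directions.

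The interferon-stimulated genes fell almost as a body. Of 44 antiviral interferon-stimulated genes tested, all of which LPS induced in the libraries with IL-10, 38 were lower and none higher (median -1.40). Isg20, an RNA exonuclease, had 2792, 2413 and 1994 with LPS and 90.6, 128 and 122 with LPS + JQ1 (log2 fold change -4.40), Ifit3, a binder of viral RNA, had 36829, 36523 and 35184 with LPS and 2593, 3774 and 3178 with LPS + JQ1 (-3.51, SE 0.426), and Ifi44 had 827, 706 and 1157 with LPS and 70.7, 68.5 and 83.7 with LPS + JQ1 (-3.59). Of 13 interferon-inducible GTPases, which attack vacuoles of intracellular pathogens, 11 fell, all more than 2-fold, and none rose (median -1.99). Gbp6 had 3368, 3503 and 4085 with LPS and 152, 234 and 188 with LPS + JQ1 (-4.25), Iigp1 fell by 4.14 and Ifi47 (-3.22).

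Genes of antigen presentation were lower in both classes. In the class I list 14 of 18 fell, 7 of them more than 2-fold, and 2 rose (median -0.94). Nlrc5, the transactivator of class I genes, fell by 1.43 (15337, 14369 and 13583 with LPS and 5253, 5506 and 5333 with LPS + JQ1), the immunoproteasome subunit Psmb10 (-1.32) and the non-classical molecule H2-M3 (-2.57). H2-K1, a classical class I heavy chain, had 34676, 34502 and 28222 with LPS and 40394, 39103 and 43271 with LPS + JQ1 (0.33, adjusted p 0.00503, and 0.0527 without LPS replicate 3). In the class II list 11 of 16 fell, 9 of them more than 2-fold, and 2 rose (median -1.87). H2-Ab1 had 1093, 1023 and 843 with LPS and 123, 55.8 and 98.5 with LPS + JQ1 (-3.42), H2-Eb1 had 665, 609 and 475 with LPS and 61.8, 45.3 and 77.6 with LPS + JQ1 (-3.25), and March1, a ubiquitin ligase that removes class II molecules from the surface, had 318, 329 and 499.7 with LPS and 8.83, 12.6 and 16.0 with LPS + JQ1 (-4.95). The 2 that rose, Rfxap (1.29) and Rfxank (1.01), code for subunits of the RFX complex that binds class II promoters. The difference between the class I and class II lists was not tested.

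Ligands that stimulate or restrain T cells were lower in 16 of 20 cases and higher in 1 (median -1.65). Lag3, a checkpoint receptor that binds class II, had 143, 127 and 107 with LPS and 11.0, 8.42 and 11.1 with LPS + JQ1 (log2 fold change -3.63), Tnfsf4, the OX40 ligand, had 339, 414 and 494 with LPS and 33.1, 54.8 and 33.2 with LPS + JQ1 (-3.36) and Slamf8 had 605, 620.4 and 686 with LPS and 38.7, 53.7 and 71.4 with LPS + JQ1 (-3.55). Vsir, the checkpoint ligand VISTA, rose slightly (0.24, adjusted p 0.00776; 0.19 and adjusted p 0.0686 without LPS + JQ1 replicate 3).

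Of 29 antimicrobial effectors and inflammatory enzymes, 22 fell (median -1.47) and 1 rose, Lyz2 (111755, 116919 and 103669 with LPS and 138063, 147793 and 136174 with LPS + JQ1, log2 fold change 0.34). Ptges, the terminal synthase of prostaglandin E, had 1200.4, 1291 and 1072 with LPS and 36.4, 37.9 and 34.5 with LPS + JQ1 (log2 fold change -5.03), Ass1, which recycles citrulline for nitric oxide synthesis, had 1152, 1144 and 821 with LPS and 66.3, 48.4 and 39.4 with LPS + JQ1 (-4.34), and Cp, the copper ferroxidase ceruloplasmin, had 1575, 1343 and 1886 with LPS and 106, 104 and 102 with LPS + JQ1 (-3.94). Nos2 (chromosome 11, 78734289 to 78773756, plus strand), the inducible nitric oxide synthase, behaved otherwise: it had 15493, 15956 and 14663 with LPS and 12318, 11912 and 13035 with LPS + JQ1 (log2 fold change -0.31, SE 0.087, adjusted p 0.00104), within an interval of -0.48 to -0.14. The adjusted p for Nos2 was 0.718 with the replicate block and 0.201 with edgeR, and the fold change was 0.07 with total-count scaling. Hdc, which makes histamine, had 2705, 2372 and 2415 with LPS and 57.4, 46.3 and 52.9 with LPS + JQ1 (-5.58), and the lipase Lipg had 3426, 3143 and 3732 with LPS and 42.0, 44.2 and 65.2 with LPS + JQ1 (-6.10, SE 0.168).

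Feedback inhibitors of cytokine signalling fell in 19 of 32 cases and rose in 7 (median -0.66). Dusp16 (-1.93) and Dusp8 (-1.69), phosphatases of MAP kinases, and Sbno2 (-1.81), a co-regulator induced by IL-10, were lower. Zfp36, tristetraprolin, which speeds the decay of cytokine transcripts, had 10929, 11452 and 9325 with LPS and 22361, 22017 and 24131 with LPS + JQ1 (log2 fold change 1.11, SE 0.085, adjusted p 4.03e-38), and its relative Zfp36l1 (1.28) and the phosphatase Dusp10 (1.56) rose too.

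Listed Fc, scavenger and lectin receptors fell in 35 of 40 cases with none higher (median -2.04; 2 higher and 28 lower with total-count scaling). Olr1, a scavenger receptor outside the list, rose and is described further on. Clec4a1, a C-type lectin of myeloid cells, had 1448, 1312 and 2064 with LPS and 14.4, 16.8 and 9.85 with LPS + JQ1 (log2 fold change -6.86), the immunoglobulin-like receptor Pilra had 782, 665 and 801 with LPS and 11.0, 22.1 and 19.7 with LPS + JQ1 (-5.41) and Fcgr4, an activating IgG receptor, had 1576, 1755 and 1994 with LPS and 34.2, 59.0 and 49.2 with LPS + JQ1 (-5.22). Fc receptor genes resemble each other, so reads shared between them were divided by estimate. Genes of coagulation, fibrinolysis and matrix fell in 28 of 34 cases with none higher (median -1.95). F3, tissue factor, had 179.6, 216 and 225 with LPS and 17.7, 17.9 and 12.3 with LPS + JQ1 (-3.69), F13a1, the factor that cross-links fibrin, had 796, 485 and 842 with LPS and 38.7, 20.0 and 54.2 with LPS + JQ1 (-4.24), and Mmp25, a membrane-bound protease, had 1459, 1400.0 and 1249.9 with LPS and 78.4, 73.7 and 96.0 with LPS + JQ1 (-4.05).

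**Figure D3:**
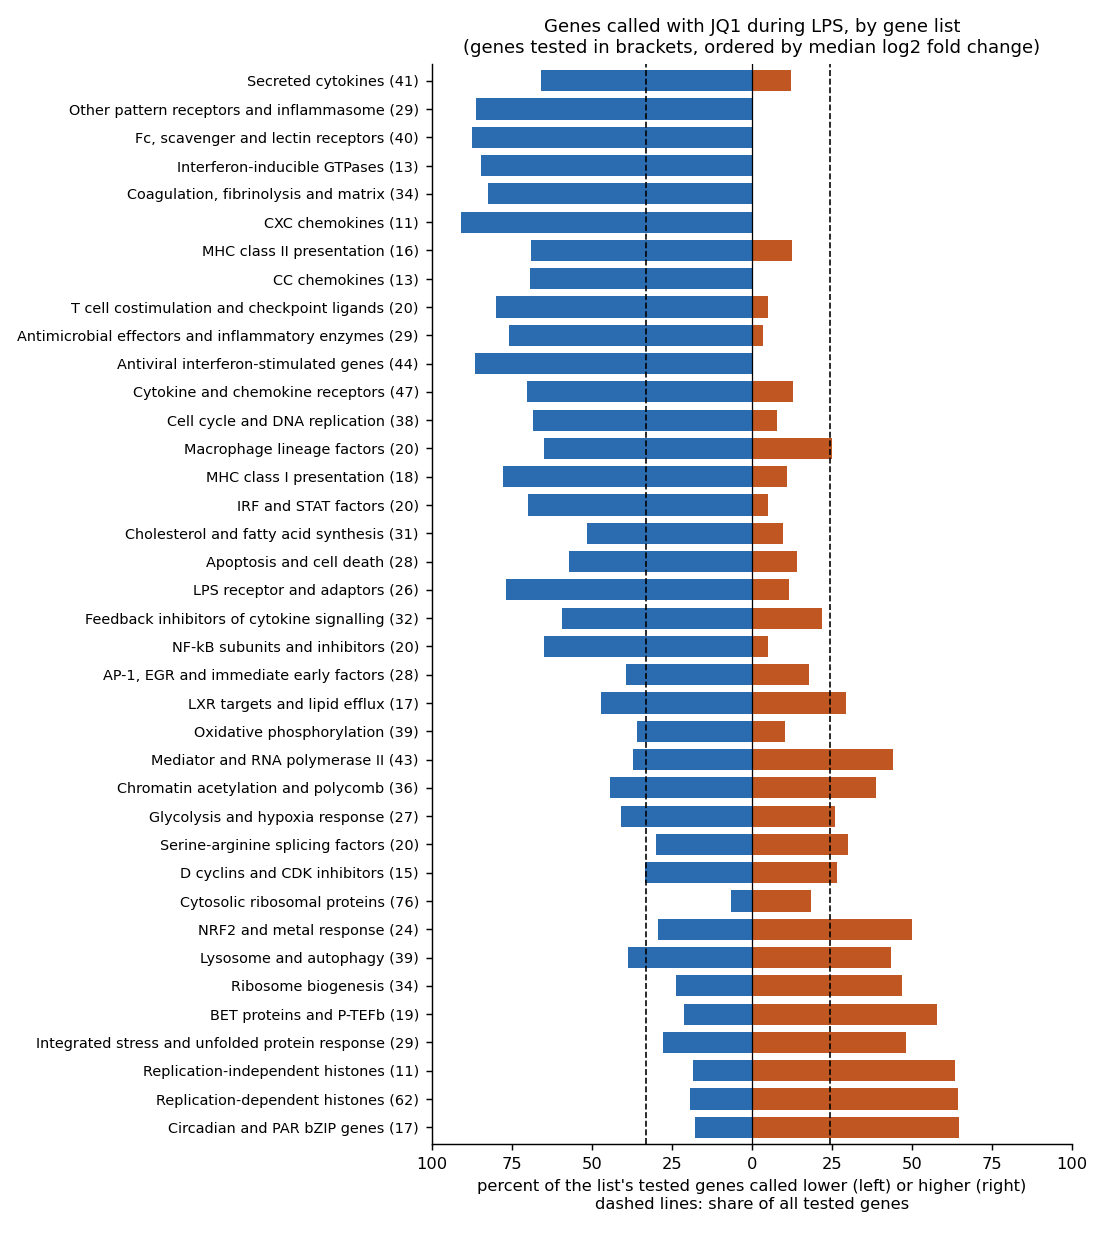
Percent of each list's tested genes called lower (blue, left) or higher (orange, right) with JQ1 during LPS stimulation, for the 38 gene lists, ordered by median; the number tested is in brackets and the dashed lines mark the shares over all tested genes, 32.9% lower and 24.4% higher. Immune lists fill the lower side, with 87.5% of phagocytic receptors and 86.4% of antiviral genes lower, and clock, histone, stress response and BET lists fill the higher side, with 64.7% of clock genes higher.

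Genes of cell death fell in 16 of 28 cases and rose in 4 (median -0.71). The LPS-induced survival genes Bcl2a1a (2108, 2025 and 2648 with LPS and 269, 222 and 245 with LPS + JQ1, log2 fold change -3.20) and Bcl2a1d (-2.56), near-identical copies whose reads may be divided between them, and Mlkl, the effector of necroptosis (-2.11), fell. Ripk3, the kinase that acts on Mlkl, had 65.0, 88.9 and 66.3 with LPS and 171, 144 and 186 with LPS + JQ1 (1.17), and the pro-apoptotic genes Bbc3, Puma (1.03), and Bid (0.99) rose. Both directions thus appeared within a single death pathway, Ripk3 higher and Mlkl lower.

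Stress response genes were higher more often than lower. Of 29 genes of the integrated stress and unfolded protein responses, 14 rose and 8 fell (median 0.36), and of 24 genes of the NRF2 and metal response 12 rose and 7 fell (median 0.10). Sesn2, a stress-induced inhibitor of mTORC1, had 66.5, 62.0 and 45.4 with LPS and 413, 408 and 407 with LPS + JQ1 (log2 fold change 2.82), the stress sensor Ern1 rose by 1.87 and the transcription factor Ddit3, CHOP, (1.66). Ppp1r15a, GADD34, the phosphatase subunit that ends the integrated stress response, had 5613, 5251 and 4264 with LPS and 702, 602 and 628 with LPS + JQ1 (-2.97). Gclc, the rate-limiting enzyme of glutathione synthesis, had 314, 329.8 and 247 with LPS and 1788, 1525 and 1382 with LPS + JQ1 (log2 fold change 2.40, SE 0.138, adjusted p 1.37e-65), Srxn1, sulfiredoxin, rose by 2.06 and the metallothionein Mt1 (2.04). Slc7a11, the cystine importer that feeds glutathione synthesis, went the other way, with 4370.2, 3754 and 4248 with LPS and 306, 282 and 189.6 with LPS + JQ1 (-3.99).

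Lysosome and autophagy genes were about evenly divided, 17 higher and 15 lower of 39 (median 0.13; 24 and 5 with total-count scaling), but 7 rose and 1 fell more than 2-fold. Ulk1, the kinase that starts autophagy, had 161, 182 and 152 with LPS and 1005, 1029.9 and 1019 with LPS + JQ1 (log2 fold change 2.62), the autophagy receptor Nbr1 had 288, 236 and 276 with LPS and 896, 885 and 939 with LPS + JQ1 (1.77) and the protease Ctsl, cathepsin L, had 9761, 11898 and 10741 with LPS and 30198, 34142 and 32447 with LPS + JQ1 (1.58). The proton pump subunit Atp6v1a fell by 0.98.

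Metabolic genes gave no common direction. Glycolysis and hypoxia genes were 7 higher (25.9%) and 11 lower (40.7%) of 27 (median -0.01), against 24.4% and 32.9% of all tested genes. They were 13 and 9 with total-count scaling and 11 and 9 with TPM. Among them were Pfkfb3, the regulator of the rate of glycolysis that LPS induces, with 4790.1, 4291 and 4255 with LPS and 799.6, 905 and 767 with LPS + JQ1 (log2 fold change -2.43), Hif1a, which fell (-1.34), and the lactate transporter Slc16a1, which rose (0.81). Nuclear genes of oxidative phosphorylation were 4 higher (10.3%) and 14 lower (35.9%) of 39, none called beyond 2-fold. The share lower was thus near that of all tested genes. This balance turned to 20 higher and 3 lower with total-count scaling and to 18 and 3 with TPM. Cytosolic ribosomal protein genes were 14 higher and 5 lower of 76, and 68 and 1 with total-count scaling, so the balance of these genes followed the scaling as well. Ribosome biogenesis genes were 16 higher and 8 lower of 34 (median 0.17).

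Proliferation genes and histone genes had medians of opposite sign. Of 38 genes of the cell cycle and DNA replication, 26 fell, 22 of them more than 2-fold, and 3 rose (median -1.23). With total-count scaling 21 fell, 15 of them more than 2-fold (median -0.86). With limma on log2(TPM + 1) 18 of 36 fell, 7 of them more than 2-fold (median -0.41). Mki67, a marker of cycling cells, had 7909, 6313 and 7433 with LPS and 804, 717 and 777 with LPS + JQ1 (log2 fold change -3.24, SE 0.128, adjusted p 7.50e-139), Ccne1, cyclin E, fell by 2.33, and Mcm5, a subunit of the replicative helicase, (-2.64). Ccnd2, a D cyclin, had 12658, 10791 and 12777 with LPS and 2382, 2191 and 2824 with LPS + JQ1 (-2.29) and Ccnd1 fell by 1.72. Of 62 replication-dependent histone genes, in contrast, 40 rose, 29 of them more than 2-fold, and 12 fell (median 0.99). Hist1h4i had 156, 177 and 174 with LPS and 748, 828 and 891 with LPS + JQ1 (2.28) and Hist2h2be 12.7, 18.6 and 20.9 with LPS and 98.3, 127 and 91.1 with LPS + JQ1 (2.59), while Hist1h3c had 124, 151 and 153 with LPS and 11.0, 16.8 and 14.8 with LPS + JQ1 (-3.33) and Hist1h3b fell by 2.51. In Hist2h3c1 the LPS libraries ranged from 0 to 42.4 and the LPS + JQ1 libraries from 235 to 300.4 (3.36). Copies of these genes are near-identical, so reads could be divided between them, and most of their transcripts lack a poly(A) tail, which the library kit did not require. Replication-independent histone genes also rose, 7 of 11, with 2 lower (median 0.66): H1f0, a linker histone of non-dividing cells, had 308, 265 and 204 with LPS and 1136, 1067 and 1205 with LPS + JQ1 (2.14), and H2afx rose by 1.59 and H2afv (1.72).

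Among genes with a mean of at least 100 and at least 10 in the lower group, the largest rise belonged to Mknk2 (chromosome 10, 80128077 to 80139038, minus strand), a kinase of the translation factor eIF4E, with 127, 131 and 98.2 with LPS and 3417, 3081 and 3485 with LPS + JQ1 (log2 fold change 4.80, SE 0.113, adjusted p below what the program can write). Narf had 14.1, 9.31 and 13.5 with LPS and 283, 303 and 268 with LPS + JQ1 (4.56), C2cd2l 49.5, 45.5 and 41.7 with LPS and 699, 540.2 and 741 with LPS + JQ1 (3.86) and Agfg2 55.1, 42.4 and 33.1 with LPS and 487, 418 and 473 with LPS + JQ1 (3.41). In the libraries with IL-10, LPS had lowered each of these 4 genes, with log2 responses of -4.68, -2.79, -3.04 and -2.02. Among the largest falls were the receptor Tarm1 (916, 1133 and 829 with LPS and 6.63, 19.0 and 9.85 with LPS + JQ1, -6.33), the membrane protein Ms4a4c (-5.97), and the transcription factors Klf7 (584, 542 and 587 with LPS and 15.5, 7.37 and 8.62 with LPS + JQ1, -5.76) and Mycl, a Myc relative (2517, 2279.9 and 1816 with LPS and 47.5, 31.6 and 44.3 with LPS + JQ1, -5.75). Mycl and Myc thus differed, Mycl falling and Myc not passing.

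The effect of JQ1 was graded by how strongly LPS induces a gene. To sort genes without using the libraries compared, the LPS response was taken from the 3 libraries with LPS + IL-10 against the 3 with IL-10. Genes that LPS raised at least 2-fold there numbered 2592; of these 2006 (77.4%) were lower with JQ1, 1169 (45.1%) more than 2-fold, and 110 (4.24%) higher, with a median of -0.97. The median was -0.66 for the 1199 genes with an LPS response of 1 to 2 on the log2 scale, -1.02 for 2 to 3, -1.45 for 3 to 4, -1.82 for 4 to 5 and -2.82 for the 318 genes above 5. In the last bin 76.4% were more than 2-fold lower and 1.26% more than 2-fold higher. The 8811 genes that changed little with LPS had a median of -0.05, with 2269 genes lower and 2024 higher. Genes that LPS lowered by more than 4-fold numbered 1302 and had a median of 0.74, with 41.9% higher and 11.4% lower. Outside the genes that changed little, the median therefore had the sign opposite to the LPS response. In resting cells the effect of JQ1 also became lower along the induced bins, with medians of 0.02, -0.08, -0.39, -0.59 and -1.0 in the same order, and it was -0.25 in the most repressed bin. The difference between both gradients was not tested. Of the genes called more than 2-fold lower, 50.4% were LPS-induced, and of those called more than 2-fold higher, 904 (63.5%) were LPS-repressed. For comparison, of all 14328 tested genes 2592 were LPS-induced, and the LPS-repressed bins held 1302 and 1623.

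**Figure D4:**
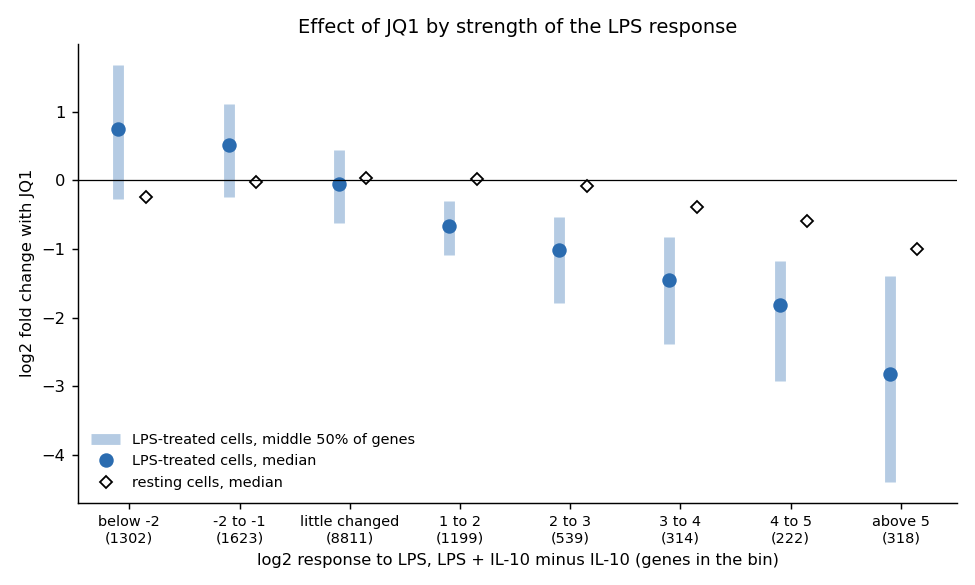
Log2 fold change with JQ1 (y axis) for genes sorted by their log2 response to LPS in libraries outside the comparison, LPS + IL-10 minus IL-10 (x axis, genes per bin in brackets). Circles are medians and bars the middle 50% of genes in LPS-treated cells, and diamonds are medians of the effect of JQ1 in resting cells; the medians in LPS-treated cells run from 0.74 in the most repressed to -2.82 in the most induced bin.

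The rule had exceptions in both directions. Among the 1952 LPS-induced genes with a mean of at least 100, 258 had an interval of the JQ1 effect that lay within -0.5 to 0.5, which leaves out larger changes with these size factors but not under every scaling. Besides Nos2 and Nfkbia these were, among the most induced, Sdc4, the heparan sulfate proteoglycan syndecan 4 (124429, 132811 and 130421 with LPS and 139433, 149454 and 155609 with LPS + JQ1, log2 fold change 0.20), Pim1, a kinase of the cytokine response (20686, 21784 and 19944 with LPS and 15980.1, 17023 and 18241 with LPS + JQ1, -0.28), Gadd45b, a stress sensor (6519, 6249 and 5823 with LPS and 7372, 7055 and 8084 with LPS + JQ1, 0.28), and Tnip3, an inhibitor of NF-kB (3501, 3234 and 5159 with LPS and 3504, 4154 and 4185 with LPS + JQ1, -0.01). Rnd3 (-0.08), Rras2 (0.16), Clic4 (-0.27) and Stat5a (0.13) completed the group. The groups overlapped for Nfkbia, Tnip3, Rnd3 and Rras2. The least induced of the 10, Stat5a, had a log2 response to LPS of 3.81. Sdc4 and Stat5a were called higher with TMM factors (0.31 and 0.25). Under total-count scaling Sdc4 (0.57), Rras2 (0.54), Stat5a (0.51) and Gadd45b (0.65) were called higher and lay beyond 0.5, and Pim1 and Clic4 took positive values under total-count scaling (0.09 and 0.10). The call of Pim1 was lost with TMM factors (-0.17, adjusted p 0.198), with edgeR (adjusted p 0.123), in the fit of only the 6 libraries (adjusted p 0.0595; 0.158 with the block) and without LPS replicate 2 (adjusted p 0.0780) or LPS + JQ1 replicate 1 (adjusted p 0.0836).

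A further 98 LPS-induced genes with a mean of at least 100 rose with JQ1. The largest rises were those of Hspb1, a small heat shock protein (24.0, 34.1 and 9.82 with LPS and 203, 179 and 208 with LPS + JQ1, log2 fold change 3.10), Heatr9 (84.8, 70.3 and 73.7 with LPS and 445, 533 and 512 with LPS + JQ1, 2.71), Olr1, the scavenger receptor LOX-1 (417, 473 and 499.7 with LPS and 2081, 2894 and 2222 with LPS + JQ1, 2.37), Odc1, the first enzyme of polyamine synthesis (829, 977 and 1025 with LPS and 3747, 5421 and 4742 with LPS + JQ1, 2.30), and Kctd12 (18666, 17827 and 20054 with LPS and 93535, 87476 and 89221 with LPS + JQ1, 2.26). Brd2, Mt1, Ier3, Fbxl15 (1.60) and Acat2 (1.59) followed. Heatr9 and Olr1 were among the genes with an LPS response above 5, so strong induction by LPS did not always go with a fall under JQ1.

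Promoter composition differed along the same lines. The 250 bases upstream of the gene start could be read for 13793 of 14328 tested genes (96.3%), at the start of the GENCODE vM1 gene. A CpG ratio of at least 0.6, a common mark of CpG-rich promoters, was found in 59.7% of all these genes, in 41.2% of those more than 2-fold lower and in 71.9% of those more than 2-fold higher with JQ1. Within the LPS-induced genes it was found in 55.6%, and in 42.1% of the 1137 that fell more than 2-fold. It was found in 77.7% of the 256 with a mean of at least 100 and an interval within -0.5 to 0.5. The 1137 were not limited by their mean, and the part of gene level in this difference was not tested. Put the other way, the 1120 LPS-induced genes with a lower ratio had a median JQ1 effect of -1.46, with 58.8% more than 2-fold lower, and the 1403 with a higher ratio -0.78, with 34.1%. Of the windows printed above, those of Ifnb1, Tnf and Il12b had a ratio under 0.6 and those of Hexim1 and Mknk2 a higher one. Hexim1 and Mknk2 were not among the LPS-induced genes.

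Motif letters were sparse in windows of this length. The interferon-stimulated response element core was in 6.92% of all windows and in 9.51% of those of LPS-induced genes. Its share was 12.1% in LPS-induced genes that fell more than 2-fold. It was 7.42% in LPS-induced genes with an interval within -0.5 to 0.5 and a mean of at least 100. AP-1 letters were in 4.60% of all windows. They were in 7.17% of all genes that fell more than 2-fold and in 3.36% of those that rose more than 2-fold. For the same groups as the response element, in the same order, kappa B letters were in 8.25%, 9.91%, 10.6% and 8.20%. TATA letters were in 7.29%, 8.01%, 8.62% and 8.20%. LPS-induced genes with the response element letters had a median JQ1 effect of -1.34 (240 genes), against -0.94 without them. With AP-1 letters it was -1.29 (159 genes) against -0.95. With TATA letters it was -1.16 (202 genes) against -0.96, and with kappa B letters -1.07 (250 genes) against -0.96. These shares are descriptions, and no match marks a bound site.

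JQ1 acted differently with and without LPS for a large part of the genes. In resting cells, JQ1 against Unstimulated, 6249 of 13688 genes were called (45.7%). The 2 effects of JQ1 share no library, and over 7953 genes with a mean of at least 100 they had a Spearman correlation of 0.607, across genes, which are not independent. The interaction, the JQ1 effect during LPS minus that in resting cells, was called for 5279 of 12729 genes (41.5%), 2250 higher and 3029 lower; 6121 had an unadjusted p under 0.05. More than 2-fold falls were shared by 1013 genes and more than 2-fold rises by 224. For 641 genes the 2 effects were called with opposite signs and the interaction was called as well. Of these, 437 were higher in resting and lower in LPS-treated cells, and 204 the reverse. These directions depend on the scaling too. In replicate 1 the size factor and the total-count factor were 0.7073 and 1.013 with LPS and 0.9055 and 0.9842 with LPS + JQ1. They were 1.296 and 0.9594 in Unstimulated cells and 1.156 and 0.9543 with JQ1 alone. Small interactions therefore had no secure sign.

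Several of the genes described above can be placed by this test. Brd2 rose in both states (2.01 in resting cells, interaction -0.05, adjusted p 0.670), whereas the rise of Hexim1 was larger during LPS (2.17, interaction 1.23, adjusted p 1.49e-18). Il1rn fell in resting cells too (-4.48, interaction -1.45), and Fcgr4 (-4.90, interaction -0.33, adjusted p 0.575) and F13a1 (-4.37, interaction 0.13, adjusted p 0.869) fell without LPS too, with no called interaction. Nlrp3 fell further in resting cells (-4.03, interaction 0.81, adjusted p 3.86e-05). Falls that were larger during LPS by this test were those of Nr4a3 (0.40 in resting cells, adjusted p 0.514; interaction -4.84, adjusted p 3.13e-17), Ppp1r15a (0.24; interaction -3.21), Pfkfb3 (0.30; interaction -2.73) and Ccnd2 (-0.43; interaction -1.86). The replication-dependent histone list had a median of -0.89 in resting cells and of 0.99 during LPS, and the cell cycle list -1.28 and -1.23.

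**Figure D5:**
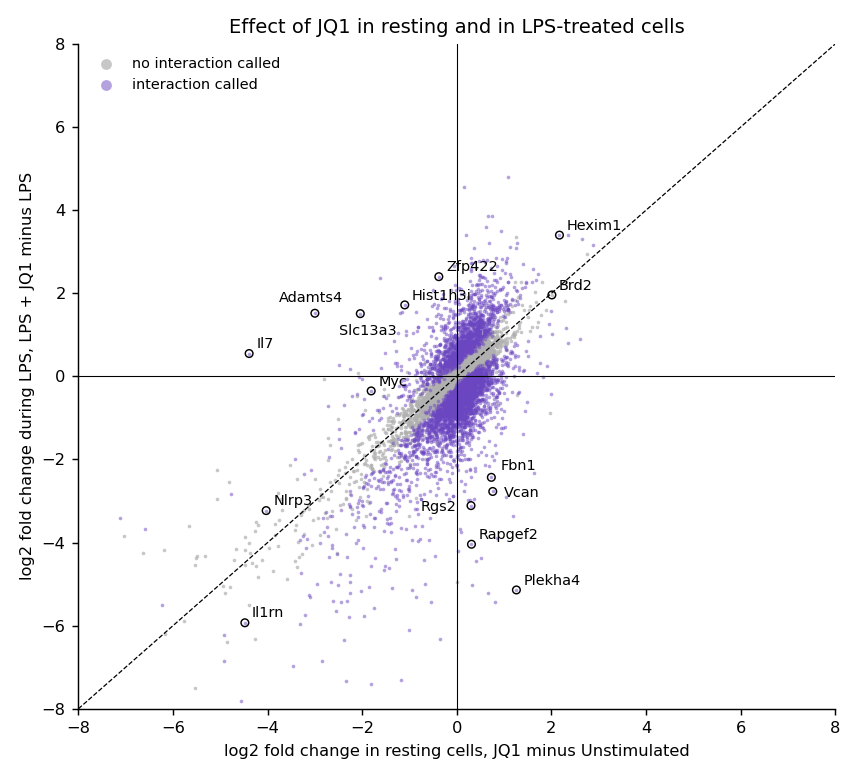
Log2 fold change with JQ1 during LPS (y axis) against that in resting cells (x axis) for 7953 genes with a mean of at least 100, with purple points where the interaction was called and a dashed line of equal effect; 6 genes lie outside the axes. Brd2 sits on the line, Il7 and Adamts4 lie in the upper left and Plekha4, Rapgef2 and Vcan in the lower right, where the effects have opposite signs.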

How the data were processed

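Bone marrow-derived macrophages of Il10-/- C57BL/6J mice were sequenced as 18 paired-end libraries with reads of 50 bases, made with a stranded kit that removes ribosomal RNA and does not select poly(A) tails. The authors extracted reads with TagDust 1.13, aligned with STAR and quantified genes with RSEM 1.2.31 on mm9 (STAR version not given in the sources used here). The deposited tables hold, for 24485 genes per library, the expected count, TPM and FPKM as the authors' RSEM wrote them. FPKM was not used. RSEM divides reads shared by copies or overlapping genes by estimate, and its defaults, which the methods name, do not use strand, so antisense and overlapping genes and the histone, Fc receptor, Bcl2a1, Gbp and Ifi families are uncertain.

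Expected counts were rounded (5.40% to 6.14% of values in the 6 libraries were not whole) and fitted with DESeq2 1.42.0 in R 4.3.3, Wald test, all 18 libraries, group as the only term. Calls had an adjusted p under 0.05 (Benjamini-Hochberg over all tested genes), and intervals are 95%. The labels give 3 mice and call the samples of the conditions matched, but do not say that a replicate number marks 1 mouse. A model with that number as a block was fitted as an alternative. Replicate 1 of both groups was sequenced on lane 7 and replicates 2 and 3 on lane 8. Alternatives were edgeR 4.0.16 with TMM, TMM or total-count scaling in DESeq2, limma 3.58.1 on the deposited TPM (log2 with a pseudocount of 1 or 0.1), filters on low counts, the 6 libraries alone, and leaving out each library. The scripts were tested on simulated data. P-values of the main fit rest on a spread between cultures estimated per gene over all 18 libraries, 3 per group, not on the compared groups alone. The floor of 3 counts covers counting error only.

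Named genes were 15 fixed ones, the 10 largest rises and falls (called, mean of at least 100, at least 10 in the lower group, same direction in 3 same-numbered pairs), up to 3 each way per list (mean of at least 50) plus lone members, the 10 LPS-induced genes least changed or most raised, and 5 opposed interactions each way. A few genes that the rule names are not reported here. Fcgr1, Itgam, Ms4a7, Spi1, Mertk, Cd68, Cd14 and Adgre1 are named as fixed macrophage markers. The comparison, the gene lists and the rule were chosen with earlier results of these data known. Gene positions, spans and promoters came from the GENCODE vM1 annotation on mm9, which also gave a position for 236 of 241 named genes.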

Additional observations from a re-analysis of the deposited data

Results flagged for a closer look

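For 10 genes named by rule, the effect of JQ1 during LPS stimulation and its effect in resting cells were called with opposite signs and differed by the DESeq2 interaction test, with adjusted p from 5.33e-216 to 0.00188. On the side where JQ1 raised the gene during LPS and lowered it in resting cells, Slc13a3, a transporter of dicarboxylates, had an interaction of 3.55 (log2 fold change 1.51 with LPS and -2.04 in resting cells). The histone gene Hist1h3i had an interaction of 2.82 (1.72 and -1.10). The zinc finger gene Zfp422 had an interaction of 2.77 (2.40 and -0.38). Il7, a lymphoid growth factor, and Adamts4, a matrix protease, had interactions of 4.94 and 4.52, but their mean normalised counts in resting cells were 3.53 and 2.18 without JQ1 and 0 and 0.288 with it, so these sizes are not measured folds. Adamts4 itself rose from 11117, 9909 and 10055 normalised counts with LPS to 33663, 24481 and 30705 with LPS + JQ1.

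On the side where JQ1 lowered the gene during LPS and raised it in resting cells, Rapgef2, an activator of Rap1, had an interaction of -4.35, with 18859, 16908 and 18604 with LPS and 1073, 1075 and 1156 with LPS + JQ1 (-4.04 with LPS and 0.31 in resting cells). Plekha4 had an interaction of -6.40 (-5.14 and 1.26), with resting means of 3.72 and 9.14 counts. Vcan, the matrix proteoglycan versican, had an interaction of -3.53 (-2.77 and 0.76). Rgs2, which restrains G protein signalling, had an interaction of -3.41 (-3.11 and 0.30), and Fbn1, fibrillin 1, had an interaction of -3.16 (-2.43 and 0.73). No cause of these differences was tested.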

How the results depend on the processing

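Of the values for named genes recomputed under other settings, 3968 were counted as the same and 26 passed the threshold newly. A further 75 no longer passed it and 15 were counted as changed in sign. Among the genes reported here, the sign changes in this count came with total-count scaling for Nos2 (0.07), Csf1r (0.12), H2afy (0.10), Pim1 (0.09), Nfkbia (0.30) and Clic4 (0.10). They also came with limma on TPM at pseudocounts of 1 and 0.1, for Csf1r (0.05), H2afy (0.03), Pim1 (0.02) and Clic4 (0.03). Genes with very small changes, such as Tnip3 and Rnd3, had no secure sign either and are not listed here. Genes changed more than 2-fold numbered 2267 with limma on log2(TPM + 1) and 2413 where every one of the 6 libraries had to hold 10 counts, against 3743; the latter has fewer genes to test. Genes more than 2-fold lower numbered 1014 and 1399 with the pseudocounts of 1 and 0.1 and 1460 with that filter, against 2319, and genes more than 2-fold higher 2443 with total-count scaling, against 1424. The median of LPS-induced genes was -0.87 in the fit of only the 6 libraries, with or without the block, with edgeR and with limma on log2(TPM + 1), -0.88 with TMM factors and -0.84 with that filter, against -0.97. It was -0.93 where LPS against Unstimulated sorted the genes. Leaving out 1 library at a time gave 7662 to 7756 genes changed, 3532 to 3634 beyond 2-fold, 1363 to 1400 higher and 2144 to 2271 lower beyond 2-fold, 4856 to 5014 interactions, and a median of -0.98 to -0.95. With the replicate block 8254 genes were changed, 8130 of them shared, although same-numbered libraries of the 2 groups did not deviate together (correlations of 0.197, -0.167 and -0.246). Among the named genes the block changed the calls of Nos2 and Myc and no other. With replicates 2 and 3 alone, which shared a lane, 7222 genes were changed. Of the list counts and medians, 199 of 646 moved, mostly with another scaling or with TPM. Apart from scaling, the causes of these shifts were not tested. Depth limits the genes under 3 counts in 1 group, whose folds are not measured sizes.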

Other observations

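Sterol synthesis and sterol efflux genes were also covered by the lists. Of 31 genes of cholesterol and fatty acid synthesis, 16 were lower with JQ1 during LPS, 14 of them more than 2-fold, and 3 higher (median -0.84, and -0.69 in resting cells). Cyp51, an enzyme late in cholesterol synthesis, had 1342, 1124 and 1168 with LPS and 209.8, 189.6 and 149 with LPS + JQ1 normalised counts (log2 fold change -2.72), and Idi1 (-2.58) and Fdps (-2.49) fell too. The 3 that rose were Acly, Acaca and Mvd: Acly, which makes cytosolic acetyl-CoA, had 2421, 2447 and 2200.2 with LPS and 4110.4, 3621 and 3879 with LPS + JQ1 (0.72), Acaca, which commits it to fatty acids, 0.39, and Mvd 0.75. Of 17 genes of liver X receptor targets and lipid efflux, 5 rose and 8 fell, but 9 rose and 6 fell with total-count scaling and 8 and 6 with TPM. The exporter Abcg1 (0.80) and Mylip (1.19), which degrades the LDL receptor, rose. Ch25h, which makes 25-hydroxycholesterol and is induced by LPS and interferon, had 1364, 1183 and 1333 with LPS and 34.2, 42.1 and 32.0 with LPS + JQ1 (-5.15, SE 0.189), with no LPS + JQ1 library near an LPS library.

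Clock genes rose in 11 of 17 cases, 7 of them more than 2-fold, and fell in 3 (median 1.00, and 0.35 in resting cells). Tef, a PAR bZIP factor, had 66.5, 54.8 and 65.1 with LPS and 272, 279 and 289 with LPS + JQ1 (2.18), and the repressors Per1 (1.53) and Cry2 (1.60) rose, whereas Clock (-0.65) and the repressors Bhlhe40 (-0.75) and Bhlhe41 (-1.19) fell. Clock and Bhlhe40 were no longer called with total-count scaling (-0.28, adjusted p 0.0597, and -0.37, adjusted p 0.113), Clock was lost with limma on log2(TPM + 1) as well (-0.29, adjusted p 0.0585), and Bhlhe40 in the fit of only the 6 libraries with the block (adjusted p 0.123). Genes of chromatin acetylation and polycomb function were 14 higher and 16 lower of 36, but 18 and 9 with total-count scaling and 18 and 10 with TPM. Kdm6b, the histone demethylase that LPS induces, had 4168, 3908 and 3068 with LPS and 828, 819 and 958 with LPS + JQ1 (-2.10), and the deacetylase Hdac9 (-2.10) and the acetyltransferase Kat2b (-1.45) fell, while Sirt7 (1.17), Kat6b (1.31) and Hdac6 (1.25) rose. Splicing factors of the serine-arginine family were 6 higher and 6 lower of 20, 30.0% each, none more than 2-fold. Over all tested genes the shares were 24.4% and 32.9%. With total-count scaling 15 splicing factors were higher and 1 lower.

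The fold change with JQ1 varied with the level of a gene and with its length. Genes with a mean of 10000 or more normalised counts (263) had a median of -0.49, with 63.9% lower. Those from 1000 to 10000 (2484) had -0.38, with 61.2% lower, and those from 100 to 1000 (5206) 0.04, with 33.8% lower. Those from 10 to 100 (3057) had 0.04, with 29.2% lower, and those under 10 (3318) -0.20, with 11.3% lower. The mean was taken over the same libraries that give the fold change. Among genes with a mean of at least 100, those spanning over 100000 bases of the genome (886) had a median of -0.28, with 20.9% more than 2-fold lower and 6.55% more than 2-fold higher. Those under 2000 bases (199) had a median of 0.12, with 14.6% and 16.1%.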
